A study of Bubalus bubalis with 12 samples.

Results

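EGF receptors and their ligands were described in the ruminal wall of Italian Mediterranean dairy buffaloes through 10 genes, taken by gene symbol from the 34037 genes of the expression table: the receptors EGFR, ERBB2 and ERBB3, the ligands TGFA, HBEGF, AREG, EREG, BTC and NRG1, and the receptor inhibitor ERRFI1. The control group was 6 adult dairy buffaloes fed a total mixed ration (TMR), and the treated group was 6 adult dairy buffaloes fed TMR with 30% green feed, which was ryegrass. All animals came from 1 farm, had calved several times, were assigned at random according to parity and milk production and were slaughtered after the trial, and both diets were balanced for nitrogen and energy. Each animal gave 1 stranded total RNA library from frozen rumen wall, without pooling, so n is 6 animals per group throughout.

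The EGF receptor family comprises membrane tyrosine kinases that pair when a ligand binds. EGFR binds TGFA, AREG, EREG, HBEGF and BTC, ERBB3 and ERBB4 bind neuregulins such as NRG1, and ERBB2 has no known ligand of its own and serves as the preferred partner of the others. The ligands are made as membrane proteins and are released by shedding proteases, above all ADAM17. In stratified squamous epithelia, to which the lining of the rumen belongs, the pathway is known for its part in the division of basal cells and in repair, and ERRFI1 (also called MIG6) is induced by receptor activity and blocks the kinase.

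Values are FPKM, the fragments of a gene relative to its length and to the depth of the library. Any order of genes of different length rests on the gene lengths behind the FPKM, whose source is not given. Between 10531330 and 12948039 fragments were counted on genes in each animal. A value of 0 in 1 animal allows up to 3 reads by counting error alone. The tissue label was compared with marker genes. The 6 basal epithelial markers in the table summed to 1183 to 3876 FPKM and the 8 suprabasal markers to 1891 to 4279 FPKM, against 5.59 to 35.2 FPKM for 9 smooth muscle markers and 18.2 to 265 FPKM for 7 fibroblast markers, so the epithelial markers were far above those of the muscle layer. The suprabasal markers were not all high. KRT13 had means of 1650 FPKM in control and 1495 FPKM in treated animals, whereas KRT4 had 0.622 and 0.366 FPKM and KRT10 1.46 and 2.07 FPKM. Control animal 6 and treated animal 6 stood apart in the basal markers, with 1183 and 1367 FPKM, while the other 10 animals lay at 2125 FPKM or above. In whole tissue such as this, fewer cells of a type and less RNA per cell cannot be told apart.

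The 3 receptors were the most abundant of the 10 genes. Over all 12 animals ERBB2 had a mean of 50.1 FPKM, ERBB3 38.8 FPKM and EGFR 36.9 FPKM, which placed them above 90.8%, 88.0% and 87.4% of the 12760 genes tested. ERBB2 was above ERBB3 in 10 of 12 animals, whereas ERBB3 was above EGFR in only 7 of 12, so the order of ERBB3 and EGFR did not stand out from the spread between animals. The order ERBB2, ERBB3, EGFR was found in 5 animals and ERBB2, EGFR, ERBB3 in 4, while each of the remaining 3 animals had an order of its own. The fourth receptor, ERBB4, was nearly missing, with 0 to 5 reads per animal.

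HBEGF and TGFA made up nearly all of the measured message for EGFR ligands. HBEGF averaged 14.5 FPKM and TGFA 13.8 FPKM, and HBEGF was the higher of the pair in 8 of 12 animals, so that neither was steadily above the other. As a share of the summed FPKM of 7 EGFR ligands, HBEGF had a median of 51.9% (29.1 to 60.2%) and TGFA a median of 41.8% (31.9 to 64.5%). AREG followed with a median share of 4.78%, EREG with 2.19% and BTC with 0.513%. EGFR was above HBEGF in 12 of 12 animals, with a ratio of their means of 2.54. EGF itself was listed at 0 in all 12 animals, and EPGN had 0 to 5 reads per animal.

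Among the neuregulins NRG1 was the most abundant, with a mean of 3.42 FPKM. Its length, as worked out from the FPKM values, was 11610 bases, the longest of the 10 genes. NRG2 had means of 1.28 FPKM in control and 1.20 FPKM in treated animals, NRG4 had 2 to 30 reads per animal and was below the filter, and NRG3 was listed at 0 in all 12 animals. ERRFI1, with a mean of 8.60 FPKM, lay between the abundant and the scarce ligands and was above NRG1 in 12 of 12 animals. This order rests on the gene lengths, since NRG1 had more reads in all, 2834 against 1896 in control and 2942 against 1917 in treated animals. Of the scarce genes, AREG (1.47 FPKM) was above EREG (0.720 FPKM) in 10 of 12 animals, and EREG was above BTC (0.153 FPKM) in 10 of 12.

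**Figure D1:**
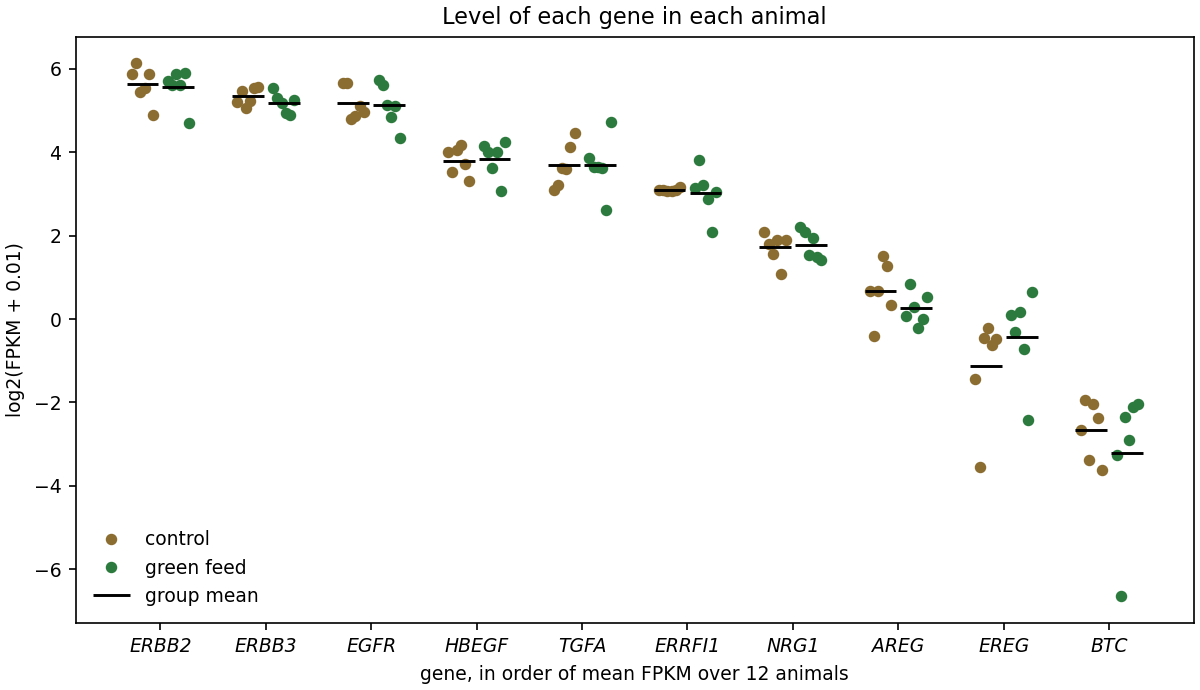
Level of each of the 10 genes in each animal as log2(FPKM + 0.01) on the vertical axis, with genes on the horizontal axis in order of mean level, 1 point per animal, brown for control and green for green feed, and a black line for the group mean. The receptors lie at the top between 20.1 and 69.9 FPKM, EREG and BTC lie at the bottom, and the groups overlap for every gene.

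In a RefSeq annotation of a different buffalo assembly (NDDB_SH_1), in which all 10 genes were found under the same gene identifiers and symbols, BTC, AREG and EREG lie side by side in this order, followed by EPGN. The levels of these neighbours were unlike, with means over the 12 animals of 0.153 FPKM for BTC, 1.47 FPKM for AREG and 0.720 FPKM for EREG.

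The main comparison asked whether green feed changed the expression of the receptors, ligands and inhibitor in the ruminal wall. None of the 9 genes that could be tested passed an adjusted p of 0.05, where the fit over all genes (limma with Benjamini-Hochberg adjustment) called 0 of 12760 genes, or 0%. At an unadjusted limma p under 0.05, 0 of the 9 genes were called, against 162 of all genes tested (1.27%; 0.799% higher and 0.47% lower in treated animals). limma voom on the reads gave 0 genes at the adjusted and 145 at the unadjusted threshold, none of them among the 9. The median log2 fold change of the 9 genes was -0.05, against 0.01 for all genes tested. The 9 genes include AREG and EREG, which entered the test through the group in which they were higher. No conclusion on AREG and EREG is drawn from these counts or from the median. For none of the 10 genes did the values of both groups separate without overlap, as they did for 7 of all genes tested (0.0549%).

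EGFR did not differ between the diets beyond the spread of the animals. In control animals it ranged from 28.0 to 50.3 FPKM with a median of 32.6, and in treated animals from 20.1 to 52.9 FPKM with a median of 34.6. The means were 37.2 ± 10.4 and 36.6 ± 12.3 FPKM (SD, n = 6 each). Control animals 1 and 2 and treated animals 1 and 2 were high and treated animal 6 was low, so the groups covered the same range. The log2 fold change of treated over control was -0.05 (SE 0.23, 95% interval -0.55 to 0.45, limma adjusted p = 1.00; exact permutation p = 0.887, two-sided), an interval that spans 0.682-fold to 1.37-fold. With the smooth muscle and fibroblast markers as a covariate the log2 fold change of EGFR was -0.35, that of ERBB2 -0.18 and that of ERRFI1 -0.31, and none of these passed the unadjusted limma threshold.

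ERBB2 ranged from 29.7 to 69.9 FPKM (median 52.4) in control and from 26.1 to 59.7 FPKM (median 50.6) in treated animals. Its lowest values in both groups were those of control animal 6 and treated animal 6, the animals with the lowest basal epithelial markers. The log2 fold change was -0.06 (95% interval -0.54 to 0.43; exact permutation p = 0.81, two-sided).

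ERBB3 varied least of the 10 genes between animals, with a coefficient of variation of 16.0% over all 12. It ranged from 33.2 to 47.4 FPKM (median 40.6) in control and from 29.5 to 46.5 FPKM (median 37.3) in treated animals, and 1 of 6 treated animals was above the control median. The log2 fold change was -0.16 (95% interval -0.45 to 0.13; exact permutation p = 0.232, two-sided), so that a fall to 0.732-fold and a rise to 1.09-fold both lay within the interval. With the smooth muscle and fibroblast markers as a covariate the log2 fold change of ERBB3 was -0.33 and passed the unadjusted limma threshold, with an adjusted p of 1.00 over all genes tested. Under this setting 319 of the 12760 genes passed the unadjusted threshold, against 162 without the covariate. The covariate was not independent of the diet, since its markers had median log2 fold changes of -0.72 (smooth muscle) and -0.59 (fibroblast). Its part in the ERBB3 value was not tested.

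HBEGF, a heparin-binding ligand of EGFR, ranged from 9.92 to 18.0 FPKM (median 14.6) in control and from 8.40 to 18.8 FPKM (median 16.0) in treated animals. Its log2 fold change was 0.05 (95% interval -0.40 to 0.49; exact permutation p = 0.825, two-sided). TGFA, the other main ligand, ranged from 8.46 to 22.0 FPKM (median 12.2) in control and from 6.12 to 26.4 FPKM (median 12.5) in treated animals. Of these 12 animals, treated animal 6 was the highest and treated animal 5 the lowest in both genes and control animal 6 was second in TGFA, so the treated range of TGFA enclosed the whole control range. The log2 fold change of TGFA was 0.01 (95% interval -0.65 to 0.67; exact permutation p = 0.978, two-sided). The summed FPKM of the 7 EGFR ligands was 30.3 ± 5.08 in control and 31.2 ± 10.5 under green feed (SD over 6 animals per group).

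AREG, an EGFR ligand of low affinity, ranged from 0.738 to 2.83 FPKM (median 1.58) in control and from 0.851 to 1.76 FPKM (median 1.13) in treated animals. These values rest on 12 to 49 reads in control and 14 to 29 reads in treated animals, or 174 against 121 reads in all. Treated animal 2 alone was above the control median, while control animal 2 was below all treated animals. The log2 fold change was -0.42 (SE 0.31, 95% interval -1.09 to 0.25, limma adjusted p = 1.00; exact permutation p = 0.221, two-sided). Without control animal 2 it was -0.64, without control animal 4 -0.25 and without control animal 5 -0.30. AREG reached the read filter through control animal 4 alone, its highest value, and the filter was not applied anew when an animal was left out. No conclusion on the diet is therefore drawn from the p-values of AREG.

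EREG, a ligand that binds EGFR and ERBB4, had the opposite sign. It ranged from 0.0755 to 0.85 FPKM (median 0.673) in control and from 0.177 to 1.55 FPKM (median 0.924) in treated animals, on 3 to 36 and 7 to 66 reads and on 136 against 216 reads in all. Treated animals 1, 3 and 6 were above every control animal, treated animal 5 was below all but 1, and control animal 2 was at the floor of 3 reads. The log2 fold change was 0.70 (SE 0.61, 95% interval -0.61 to 2.02, limma adjusted p = 1.00; exact permutation p = 0.348, two-sided), the widest interval of the 9 genes. It was 0.22 without control animal 2 and 1.10 without treated animal 5. EREG reached the filter of 40 scaled reads through treated animals only and AREG through control animal 4 only, so both entered the test through the group in which they were higher. The p-values and intervals of both genes are therefore printed as values only, and no conclusion on the diet is drawn from them.

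The AREG and EREG messages were also set against each other within each animal, a ratio chosen after their values had been seen. The ratio of AREG to EREG in FPKM was 1.76 to 9.79 in control animals with a median of 3.55, and 0.927 to 5.59 in treated animals with a median of 1.26. Treated animals 1, 3, 4 and 6 lay below every control animal, treated animal 2 lay among the low control animals, and treated animal 5 exceeded all control animals but 1. No test is given for this ratio, since each of its genes reached the read filter through the group in which it was high.

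BTC, a ligand of EGFR and ERBB4, could not be tested. It ranged from 0.0709 to 0.251 FPKM in control and from 0 to 0.235 FPKM in treated animals, with 0 to 8 reads per animal and 32 against 28 reads in all. 4 of 12 animals were at or under 3 reads, and a difference between the diets was not detectable at this depth.

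NRG1, the ligand of ERBB3, ranged from 2.10 to 4.25 FPKM (median 3.57) in control and from 2.67 to 4.59 FPKM (median 3.34) in treated animals. Its log2 fold change was 0.06 (95% interval -0.38 to 0.50; exact permutation p = 0.773, two-sided). 3 of 6 treated animals lay above the control median.

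ERRFI1 had close means under both diets and a wider spread in treated animals. In control animals it ranged from 8.36 to 8.92 FPKM (median 8.53) and in treated animals from 4.24 to 14.0 FPKM (median 8.54). The means were 8.55 ± 0.201 and 8.66 ± 3.19 FPKM (SD, n = 6 each), and the log2 fold change was -0.07 (95% interval -0.53 to 0.39; exact permutation p = 0.697, two-sided). Treated animal 2 was far above and treated animal 5 far below the other 10 animals, while the other 4 treated animals lay near the controls. On the log2 scale the SD was 0.03 in control and 0.56 in treated animals, a ratio of 16.8. Of 12760 genes tested, 0 had a larger ratio, against a median ratio of 1.10, but the control SD was also below the 0.08 that counting error alone gives at this depth. ERRFI1 was singled out for its spread after its values were seen, and no test was made of it.

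**Figure D2:**
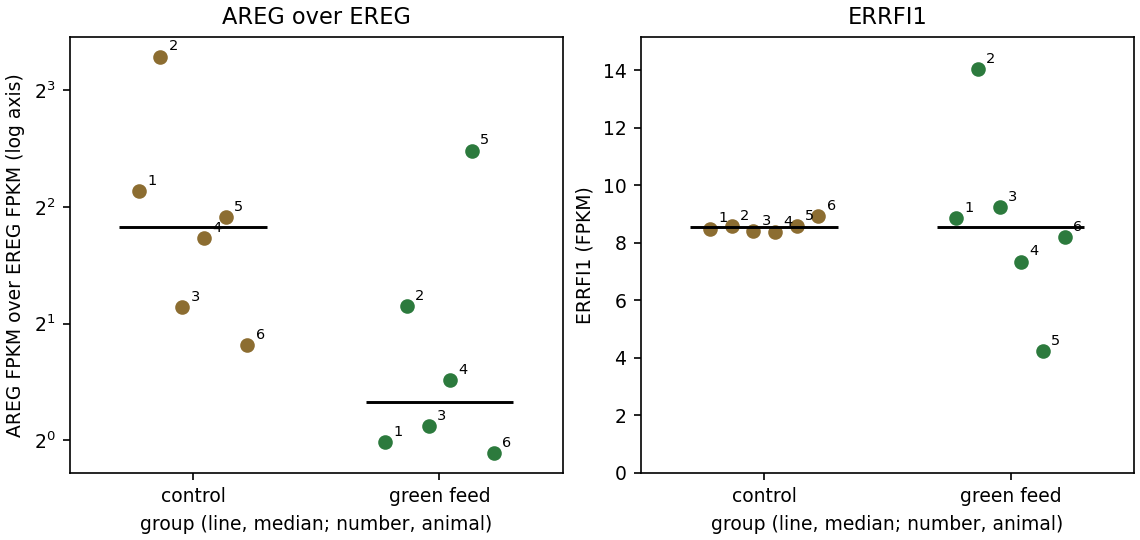
Left, ratio of AREG to EREG in FPKM per animal on a log axis. Right, ERRFI1 in FPKM per animal on a linear axis from 0; brown points are control and green points green feed animals, numbers name the animal and lines are medians. The AREG to EREG ratio has medians of 3.55 and 1.26, and ERRFI1 lies between 8.36 and 8.92 FPKM in all control animals but between 4.24 and 14.0 FPKM in treated animals.

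Few pairs of the genes followed each other across animals. The likeness of 2 genes was measured by Pearson r and Spearman rho of log2(FPKM + 0.01) over the 12 animals, as a description, since all genes of an animal share its library and its mix of cells. Of 36 pairs, 2 had r above 0.6 and 2 had r below -0.6, around a median of 0.21. The share of all pairs of genes tested that passes these cuts was not worked out, so the counts are not read as a trait of the members. The receptors EGFR and ERBB2 were high in the same animals (r = 0.69, rho = 0.70, n = 12), and so did the ligands EREG and TGFA (r = 0.71, rho = 0.63). These pairs ran against each other: r was -0.78 for ERBB2 and TGFA (rho = -0.52) and -0.61 for ERBB2 and EREG (rho = -0.57). After the group means were subtracted, these 4 values of r were 0.69, 0.74, -0.78 and -0.62. Without the 2 animals farthest from the median of the first gene they were 0.53, 0.63, -0.38 and -0.69, so the value for ERBB2 and TGFA rested in good part on control animal 6 and treated animal 6.

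ERBB3 and its ligand NRG1 showed little likeness (r = 0.08, rho = 0.12), and neither did ERBB3 and ERBB2 (r = -0.11, rho = -0.07). EGFR had no positive r with its main ligands, with -0.125 to HBEGF and -0.50 to TGFA. AREG and EREG, neighbours on the chromosome, had r = 0.48, which was 0.68 after the group means were subtracted and 0.16 without control animals 2 and 4.

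**Figure D3:**
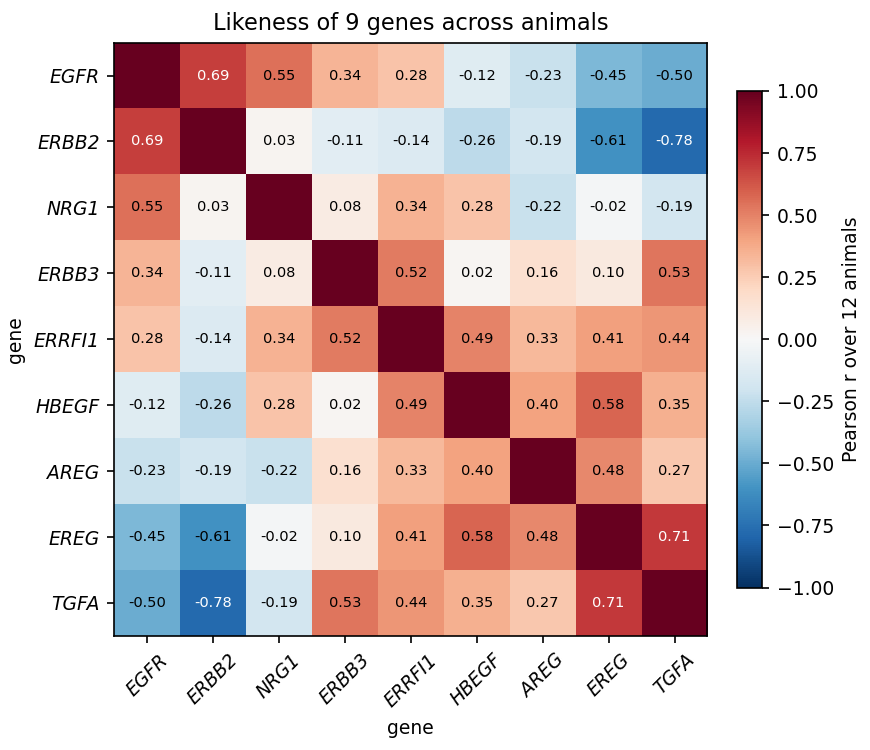
Pearson r of log2(FPKM + 0.01) over 12 animals for each pair of the 9 genes tested, from blue (-1) through white (0) to red (1), with the value in each square. EGFR and ERBB2 form a red pair (0.69), EREG and TGFA another (0.71), and the squares of ERBB2 with EREG and TGFA are blue (-0.61 and -0.78).

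EGFR, ERBB2 and TGFA also varied with the epithelial markers. ERBB2 had r = 0.92 (rho = 0.80, n = 12) with the mean log2 level of the basal epithelial markers and EGFR had r = 0.69 (rho = 0.76), whereas TGFA had r = -0.80 (rho = -0.57). Without the 2 animals farthest from the median of each gene, r was 0.57 for ERBB2, 0.46 for EGFR and -0.70 for TGFA. The suprabasal markers gave the same signs, with r = 0.73 for ERBB2, 0.49 for EGFR and -0.565 for TGFA. Without the same 2 animals of each gene these were 0.11, 0.31 and -0.61. The suprabasal score weighs the scarce KRT4 (2 to 51 reads) and KRT10 (0 to 133 reads) as much as abundant markers. By this score control animal 6 and treated animal 6 were the lowest (3.96 and 4.84). Their summed suprabasal levels, 2394.5 and 2772.9 FPKM, lay well within the range of the other animals. Whether the signs were particular to the basal markers was therefore not settled. Control animal 6 and treated animal 6, the lowest in basal markers, had 29.7 and 26.1 FPKM of ERBB2 and 22.0 and 26.4 FPKM of TGFA, while treated animal 5, the highest in basal markers with 3876 FPKM, had 6.12 FPKM of TGFA, the lowest of all. EGFR had r = -0.77 (rho = -0.79) with the fibroblast markers. ERBB3 had r = -0.25 with the basal markers and -0.62 with 5 endothelial markers. The part that the mix of cells had in these values was not tested.

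**Figure D4:**
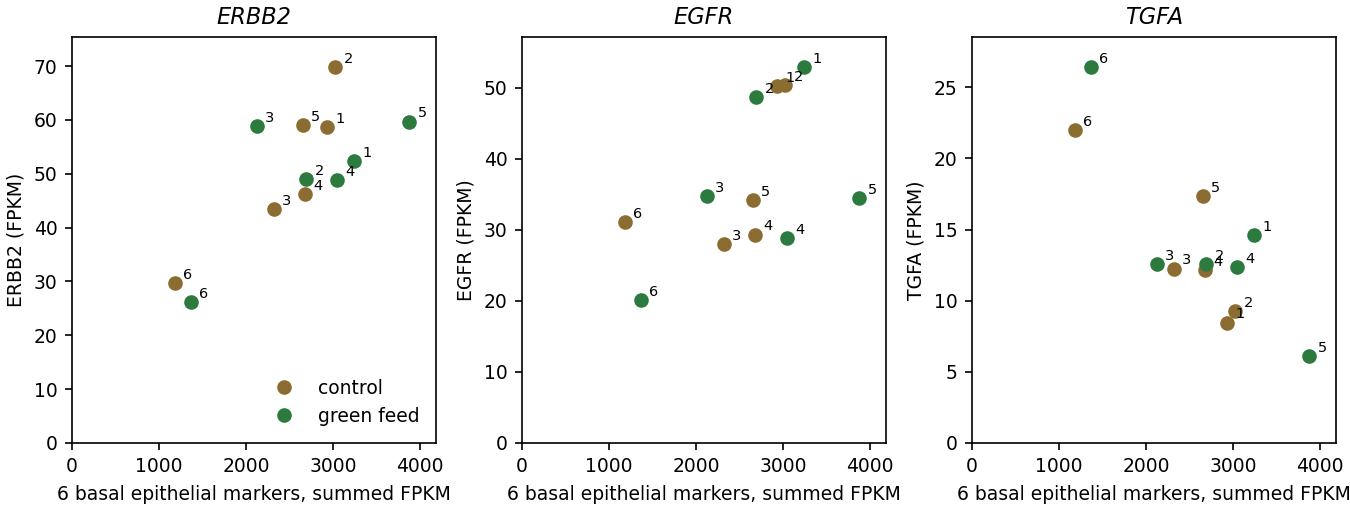
ERBB2, EGFR and TGFA in FPKM (vertical axes, from 0) against the summed FPKM of 6 basal epithelial markers (horizontal axes, from 0), 1 point per animal with its number, brown for control and green for green feed. Animal 6 of each group lies at the left with the lowest ERBB2 of its group and the highest TGFA of its group, at 1183 and 1367 FPKM of the markers.

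The marker lists did not move evenly between the diets. The median log2 fold change was -0.72 over the 7 smooth muscle markers tested, of which 1 (DES, -1.04) was lower at an unadjusted limma p under 0.05, and -0.59 over the 7 fibroblast markers, of which 0 passed. The basal epithelial markers had a median of 0.11 and the suprabasal markers of -0.04, with 0 of 6 and 0 of 8 called. The median was -0.12 over 5 endothelial markers, -0.12 over 4 immune markers and -0.49 for S100B, the 1 glial marker tested, with 0 called in each. SOX10 and ELAVL4, of 7 glial and neuronal markers, were listed at 0 in all animals. Summed over 9 smooth muscle markers, levels were 15.3 to 35.2 FPKM in control and 5.59 to 27.5 FPKM in treated animals. When the basal marker level was taken as a covariate, 0 of the 9 genes were called, and likewise without control animal 6 and treated animal 6.

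Each of the 9 genes was then compared with all other genes tested for the pattern nearest to its own, by Pearson r over the 12 animals, and the 3 highest are named. Picking the highest of so many genes over 12 animals gives a high r by itself, and how high was not worked out. The names are a description and do not mark these genes as partners of the members. For EGFR these were SF1, HCFC1 and VGLL4 (r = 0.962 each). ERBB2 was followed most closely by ULK3 (r = 0.975), ZNF185 (0.967) and RAB11FIP5 (0.965), and for ULK3 r was still 0.96 without control animal 6 and treated animal 6. The nearest patterns to ERBB3 were those of FAM20B (0.92), NEO1 (0.91) and IL22RA1, a receptor chain for interleukin 22 (0.91).

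TGFA was nearest to RHBDL2, a rhomboid family protease (r = 0.949), CHST4, a sulfotransferase (0.945), and TMPRSS11D, an airway trypsin-like serine protease (0.945), with r of 0.878 to 0.910 without treated animals 5 and 6. HBEGF was nearest to ABCF2 (0.92), LOC112578537 (0.87) and PMM2 (0.86). EREG was nearest to FAM83A (0.895), TMEM40 (0.86) and IFNLR1, a receptor chain for interferon lambda (0.86), and AREG to LSM12 (0.893), YWHAG (0.808) and MACC1 (0.773). Without control animal 2 and treated animal 5, r with EREG was 0.823 for FAM83A, 0.686 for TMEM40 and 0.494 for IFNLR1. Without the 2 animals farthest from the median, r was 0.816, 0.697 and 0.59 for the 3 genes nearest to AREG, and 0.799, 0.614 and 0.743 for those nearest to HBEGF. NRG1 was nearest to SKA1 (0.97), ZNF454 (0.896) and PRKCB (0.895). ERRFI1 was nearest to MACF1 (0.89), NDUFAF4 (0.87) and WDFY1 (0.865), of which NDUFAF4 fell to 0.06 and WDFY1 to 0.36 without treated animals 2 and 5.

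The genes around the receptors were read from lists of known pathway parts. Of 4 genes of ligand shedding, all were tested and 0 passed the unadjusted threshold. The proteases ADAM17 and ADAM10 were steady and abundant, with means of 18.2 ± 2.39 and 23.7 ± 3.21 FPKM in control and 17.3 ± 2.57 and 21.6 ± 1.39 FPKM under green feed (SD over 6 animals per group), and log2 fold changes of -0.08 (SE 0.13) and -0.13 (SE 0.11). RHBDF1 and RHBDF2, the iRhoms that bring ADAM17 to the cell surface, were lower in level, with control means of 1.86 and 1.15 FPKM and log2 fold changes of 0.22 (SE 0.31) and 0.30 (SE 0.37).

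Of 15 feedback inhibitors, 12 were tested and 0 passed. Their log2 fold changes had a median of -0.05 and ran from -0.19 for LRIG1, which promotes loss of the receptors, to 0.18 for DUSP5, an ERK phosphatase. All 21 adaptors and kinases of the cascade were tested and 0 passed, with a median of 0.00, the lowest in MAPK3 (ERK1, -0.20) and the highest in PLCG1 (phospholipase C gamma, 0.11). Of 10 output genes of the ERK cascade, 7 were tested and 0 passed, with a median of 0.10 and values from -0.16 for the ephrin receptor EPHA4 to 0.37 for the transcription factor ETV4. Of 15 immediate early genes, which growth factors induce within minutes, 13 were tested and 0 passed, with a median of 0.09 and values from -0.25 for NR4A1 to 0.45 for EGR1, both transcription factors. For comparison, NRG2 had a log2 fold change of -0.20 (SE 0.34).

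The members followed these output genes to different degrees. HBEGF had r = 0.65 and NRG1 r = 0.63 with the mean log2 level of the ERK output genes over the 12 animals, while TGFA had r = -0.23 and EREG r = 0.06. Without the 2 animals farthest from the median of each gene these were 0.40, 0.65, -0.63 and -0.33, so NRG1 alone of the 4 kept its value closely. With the immediate early genes r was 0.56 for HBEGF, 0.54 for EGFR, 0.50 for ERBB2 and 0.48 for NRG1, and -0.35 for TGFA. Without the 2 farthest animals it was 0.22 for HBEGF, 0.37 for EGFR, 0.59 for NRG1 and -0.52 for TGFA. For ERBB2 it turned to -0.41 without control animal 6 and treated animal 6. These values are descriptions over the same 12 libraries. Both scores give genes below the filter the same weight as the others. These were SPRY2 (8 to 30 reads), SPRY4 (2 to 30) and DUSP4 (6 to 32) among the output genes. Among the immediate early genes they were FOSB (0 to 25 reads) and EGR2 (1 to 10).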

How the data were processed

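Ruminal wall of 12 buffaloes was measured by stranded total RNA sequencing. Per the labels and the study's methods, the authors used Trimmomatic 0.39 for trimming, STAR 2.5.2b for alignment to UOA_WB_1 and featureCounts 2.0.0 for strand-aware counts, with a mapping quality filter that leaves out reads shared between copies. The authors deposited FPKM; the tool and gene lengths behind it are not given in the sources used here. Of the table's 16 value columns, 4 match no sample and were not used. Within each gene the FPKM were whole multiples of 1 read (100% of 219695 values within 0.001), which gave reads and depth.

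Genes with at least 40 reads, scaled to the mean library, in at least 1 animal (12760) were tested with limma 3.58.1 (R 4.3.3). The fit used lmFit and eBayes with trend on log2(FPKM + 0.01). The p-values were adjusted after Benjamini and Hochberg over this whole set. For low genes the log2 fold change depends on this scale. That of EREG was 0.70, against 0.66 from the ratio of group means and 0.26 at a pseudocount of 1. That of AREG was -0.42, against -0.51 and -0.26. Single genes were also compared by exact permutation over all 924 assignments (smallest possible p 0.00216). Python 3.11.15, numpy 2.4.6 and scipy 1.17.1 were used. No 2 libraries agreed within sampling noise (lowest chi-square per degree of freedom over genes 18.5). Animals were numbered from the labels. Alternatives were other pseudocounts, filters, scalings, voom, covariates, a replicate block and animals left out. The genes and lists were chosen with earlier results of these data known. Named were all 10 genes, the other receptors, ligands and shedding genes, and in each further list the highest and lowest fold change and any gene past the unadjusted threshold. Floors of reads cover counting error only, while the 95% intervals are from limma and cover the spread between animals.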

Additional observations from a re-analysis of the deposited data

Results flagged for a closer look

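Each of the 10 genes was examined for a single animal far from the other 5 of its group, in 20 groups of 6, of which chance flags about 1 in 20. ERBB2 in treated animal 6 was the lowest of its group at 26.1 FPKM, with a gap to the next animal of 0.755 of the range of the group on the log2 scale. EREG in control animal 2 was the lowest of its group at 0.0755 FPKM, which is 3 reads, with a gap of 0.632 of the range. BTC in treated animal 2 was the lowest of its group at 0 FPKM, with a gap of 0.731 of the range. The next animal of its group, treated animal 1, had 3 reads, and the control animals had 2 to 8 reads. A value of 0 allows up to 3 reads by counting error alone, and at 0 reads the size of the gap is set by the pseudocount. The rate of about 1 in 20 does not hold for such a value, so no conclusion is drawn from this flag of BTC.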

How the results depend on the processing

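Under 23 alternative settings no gene of the table passed an adjusted limma p of 0.05. The number of genes at an unadjusted p under 0.05 was 162, and it was 562 without a filter, 301 with a minimum of 0.1 FPKM in 6 or more animals, 319 with the smooth muscle and fibroblast score as a covariate and 144 to 331 with 1 animal left out (331 without treated animal 6). It was 322 with the basal epithelial score as a covariate and 317 without the 2 animals lowest in basal markers, alternatives chosen after seeing the data. With the replicate block it was 326. A label number does not mark the same animal in control and treated groups. Same-numbered animals correlated at -0.01 to 0.41 in their deviations over 6 pairs, with a mean of 0.21, against a mean of -0.04 over the 30 other pairs. Of 12 animals, 7 correlated best with their own number. What animals of the same number share was not tested. Of the 9 genes, 0 were called with the replicate block. 1 was called with the smooth muscle and fibroblast score (ERBB3), and 0 to 1 with 1 animal left out (AREG without control animal 2). No conclusion is drawn from that call of AREG, which reached the read filter through control animal 4 only.

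Log2 fold changes near 0 changed sign in 27 of 216 alternative values. With 1 animal left out the values ran from -0.17 to 0.11 for EGFR, -0.20 to 0.12 for ERBB2, -0.23 to -0.10 for ERBB3, -0.64 to -0.25 for AREG, 0.22 to 1.10 for EREG, -0.049 to 0.20 for HBEGF, -0.20 to 0.22 for TGFA, -0.068 to 0.13 for NRG1 and -0.22 to 0.12 for ERRFI1. With the smooth muscle and fibroblast score HBEGF was -0.059, TGFA -0.035 and NRG1 -0.056, while EGFR moved to -0.35, ERRFI1 to -0.31 and ERBB2 to -0.18. Without the 2 animals lowest in basal markers EGFR was 0.065, HBEGF -0.13 and TGFA -0.044. ERRFI1 was 0.018 when group means of FPKM were divided. The cause of these changes was not tested. Pairs of genes with r above 0.6 numbered 2, and 1 without the 2 farthest animals. Depth limits AREG, EREG and BTC, with at most 66 reads per animal.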
